A study of Mus musculus with 12 samples.

Results

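Glycolysis is represented here by 10 enzyme genes, Hk1, Hk2, Gpi1, Pfkl, Pfkp, Aldoa, Aldoc, Tpi1, Pgk1 and Ldha, which run from the first phosphorylation of glucose to the reduction of pyruvate to lactate. They were taken by symbol, as the array rows whose platform annotation gives that symbol and no other. Of the 10 genes, 9 have such a row, among 19938 genes with a row in all, and Gpi1 was not analysed here. The 9 genes have 12 of the 35556 rows, 1 of which repeats the values of another Pgk1 row. A row is a probe set, and its value is the deposited log2 expression value. The cells are Min6, an insulin-producing mouse insulinoma line that serves as a model of the pancreatic beta cell. All cultures were kept for 15 days, in 3 periods of 5 days with a passage between them, and all spent the first period in DMEM with 15% fetal calf serum and 2-mercaptoethanol at 20% oxygen. Return condition (RC) cells then had 5 days in serum-free DMEM-F12 with apo-transferrin (100 µg/mL), progesterone (20 nM), putrescine (100 µM) and selenite (30 nM) at 5% oxygen, and returned to serum and 20% oxygen for the last 5 days. Defined condition (DC) cells stayed in the serum-free medium at 5% oxygen for the final 10 days, and classic condition (CC) cells never left serum and 20% oxygen. Each condition has 4 arrays from a single experiment, so a p-value here covers only the spread among those samples, which may be technical. Serum, oxygen, the basal medium, 2-mercaptoethanol and the supplements changed together and cannot be told apart, and RC and DC also differ in the length of the serum-free period.

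Hexokinase traps glucose in the cell as glucose 6-phosphate, phosphofructokinase commits it to glycolysis, aldolase splits the resulting sugar, triose phosphate isomerase joins the products into a common branch, phosphoglycerate kinase makes ATP, and lactate dehydrogenase regenerates the NAD that the pathway needs. Several steps have isozymes from separate genes. When oxygen is scarce, the hypoxia-inducible factors (HIF) escape degradation and raise transcription of many of these genes through promoter elements whose core letters are ACGTG or GCGTG. Mature beta cells are known for keeping hexokinase 1 and lactate dehydrogenase A low, which couples insulin release to mitochondrial oxidation of glucose.

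The promoters of the 9 genes were searched for these letters in RefSeq windows of GRCm38.p6 that reach from 250 bases before to 50 after an annotated start. There are 14 such windows, since some genes have several starts. ACGTG, read on both strands, occurs in 7 of the 14 windows and in 6 of the 9 genes, against 19.6% of all 32851 windows and 21.8% of all 27025 genes of the RefSeq table. Those 6 genes are Hk1, Hk2, Aldoa, Aldoc, Pgk1 and Ldha. They include both hexokinases, which did not pass for DC against CC below, while Pfkl, Pfkp and Tpi1, which passed, have no ACGTG. Pfkl and Pfkp hold GCGTG. The Aldoa windows with ACGTG overlap and hold the same match, so the count of windows repeats that site. GCGTG occurs in 7 of the 14 windows, against 32.4% of all windows. On both strands each of these pentamers can overlap itself or the other. The 250 bases upstream of the start are printed below, 5′ to 3′ on the gene's strand, for the genes that span the range of the results: Aldoc and Ldha, which changed most in DC, Pgk1, Tpi1, which changed in DC without a match in its window, and Hk2, which has matches and did not pass the test. Capitals mark ACGTG or GCGTG on either strand, the reverse strand appearing as CACGT or CACGC. The windows are chr11:78322823-78323072 (plus strand), chr7:46845554-46845803 (plus), chrX:106186850-106187099 (plus), chr6:124814159-124814408 (minus) and chr6:82774455-82774704 (minus).
Aldoc: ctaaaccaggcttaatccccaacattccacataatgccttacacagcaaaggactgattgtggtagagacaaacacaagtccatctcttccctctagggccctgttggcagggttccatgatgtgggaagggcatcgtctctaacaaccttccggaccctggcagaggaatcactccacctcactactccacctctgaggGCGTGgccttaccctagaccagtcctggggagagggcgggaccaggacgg
Ldha: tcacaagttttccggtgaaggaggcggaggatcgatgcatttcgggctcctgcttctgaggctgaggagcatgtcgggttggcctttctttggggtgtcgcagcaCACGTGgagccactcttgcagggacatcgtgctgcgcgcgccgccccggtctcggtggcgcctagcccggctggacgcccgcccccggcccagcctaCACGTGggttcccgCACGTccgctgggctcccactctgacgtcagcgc
Pgk1: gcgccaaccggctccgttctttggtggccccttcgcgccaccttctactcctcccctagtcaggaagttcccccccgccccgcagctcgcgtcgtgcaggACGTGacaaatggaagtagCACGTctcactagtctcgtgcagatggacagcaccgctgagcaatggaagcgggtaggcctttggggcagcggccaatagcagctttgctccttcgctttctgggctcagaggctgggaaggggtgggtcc
Tpi1: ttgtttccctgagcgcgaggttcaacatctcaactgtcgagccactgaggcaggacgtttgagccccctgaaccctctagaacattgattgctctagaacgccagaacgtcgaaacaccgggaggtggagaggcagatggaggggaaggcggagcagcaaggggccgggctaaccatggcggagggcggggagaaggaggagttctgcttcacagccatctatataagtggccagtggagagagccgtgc
Hk2: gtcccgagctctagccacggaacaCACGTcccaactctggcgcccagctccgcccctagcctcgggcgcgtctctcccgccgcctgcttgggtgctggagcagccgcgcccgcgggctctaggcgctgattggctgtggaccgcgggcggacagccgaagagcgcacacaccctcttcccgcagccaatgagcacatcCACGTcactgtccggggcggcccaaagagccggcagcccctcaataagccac
The Ldha stretch holds the palindrome CACGTG at 2 places, each counted on both strands, and 1 further ACGTG, which makes 5 matches. Those of Pgk1 and Hk2 hold 2 ACGTG matches each, and that of Tpi1 holds neither motif. The Aldoc stretch has 1 GCGTG, and its ACGTG match lies within the 50 bases after the start. Ldha and Aldoc each have a further annotated start, whose window is not printed and holds GCGTG but no ACGTG. A match is a description of the letters and not of a bound site.

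Array medians ranged from 7.92 to 8.05. RC 3 stood apart, with a mean correlation of 0.976 with the other RC arrays against 0.989 to 0.990 for the other RC arrays, and the CC arrays fell into the pairs CC 1 with CC 2 and CC 3 with CC 4. Ins2, the defining product of these cells, read 13.02 ± 0.05 in RC, 13.05 ± 0.04 in DC and 13.03 ± 0.03 in CC (SD, n = 4). Of the 17 measured beta cell markers, Ins2 among them, 3 were higher in DC than in CC, Pax6 (0.53, adjusted p = 8.3e-05), Slc30a8 (0.31, adjusted p = 0.04) and Nkx2-2 (0.29, adjusted p = 0.019), and 1 lower, Chgb (-0.29, adjusted p = 0.014). The shares of all rows called were 2.31% higher and 4.32% lower in DC. In RC against DC, Pax6 (-0.35), Slc30a8 (-0.45) and Nkx2-2 (-0.34) were lower, as were 1.18% of all rows. Of 4 measured hormone genes of other islet cells, Sst, the somatostatin of delta cells, read 12.25 ± 0.16 in RC, 10.55 ± 0.63 in DC and 11.81 ± 0.19 in CC (SD, n = 4). It was lower in DC than in CC (-1.26 ± 0.24, adjusted p = 0.0066) and higher in RC than in DC (1.70 ± 0.24, adjusted p = 0.0019), and the other 3 passed in no comparison. Markers of exocrine and duct cells, fibroblasts, endothelium and immune cells had 21 measured genes, of which 0 passed the test in any comparison by limma. For DC against CC, 7311 of all 35556 rows and 3 of these 21 markers had an unadjusted p under 0.05. In the other comparisons 0 of the markers did. Their mean log2 level was 7.39 to 7.71 on the RC arrays, 7.43 to 7.64 on the DC arrays and 7.32 to 7.49 on the CC arrays. The sum of their log2 values, which only restates this mean, was 155.2 to 161.8 in RC, 155.9 to 160.4 in DC and 153.8 to 157.3 in CC. All 21 were higher in DC than in CC on average, by 0.07 to 0.23 on the log2 scale. Their median difference was 0.16, against 0.04 over all rows. The mean level of these markers lay below the median of all values, 7.99, on every array, and no value was set against background. The part of these marker differences in the results below was not tested. In bulk RNA, a change in the share of a cell state and a change in RNA per cell cannot be told apart.

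DC was compared with CC to ask what 10 days without serum at low oxygen did to these transcripts. Of the 9 measured enzymes, 7 were higher in DC and 0 lower, from phosphofructokinase to lactate dehydrogenase, while neither hexokinase passed the test. The median of the 9 log2 differences was 1.18, with a range of 0.13 to 2.29, against a median of 0.04 over all rows. Over all 35556 rows, 823 were higher in DC, which is 2.31%, and 1537 lower, which is 4.32% (limma, adjusted p under 0.05). After centring every array on one shared median, 502 rows were higher and 1698 lower. For the same 7 genes every DC array lay above every CC array, as in 7.29% of all rows.

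**Figure D1:**
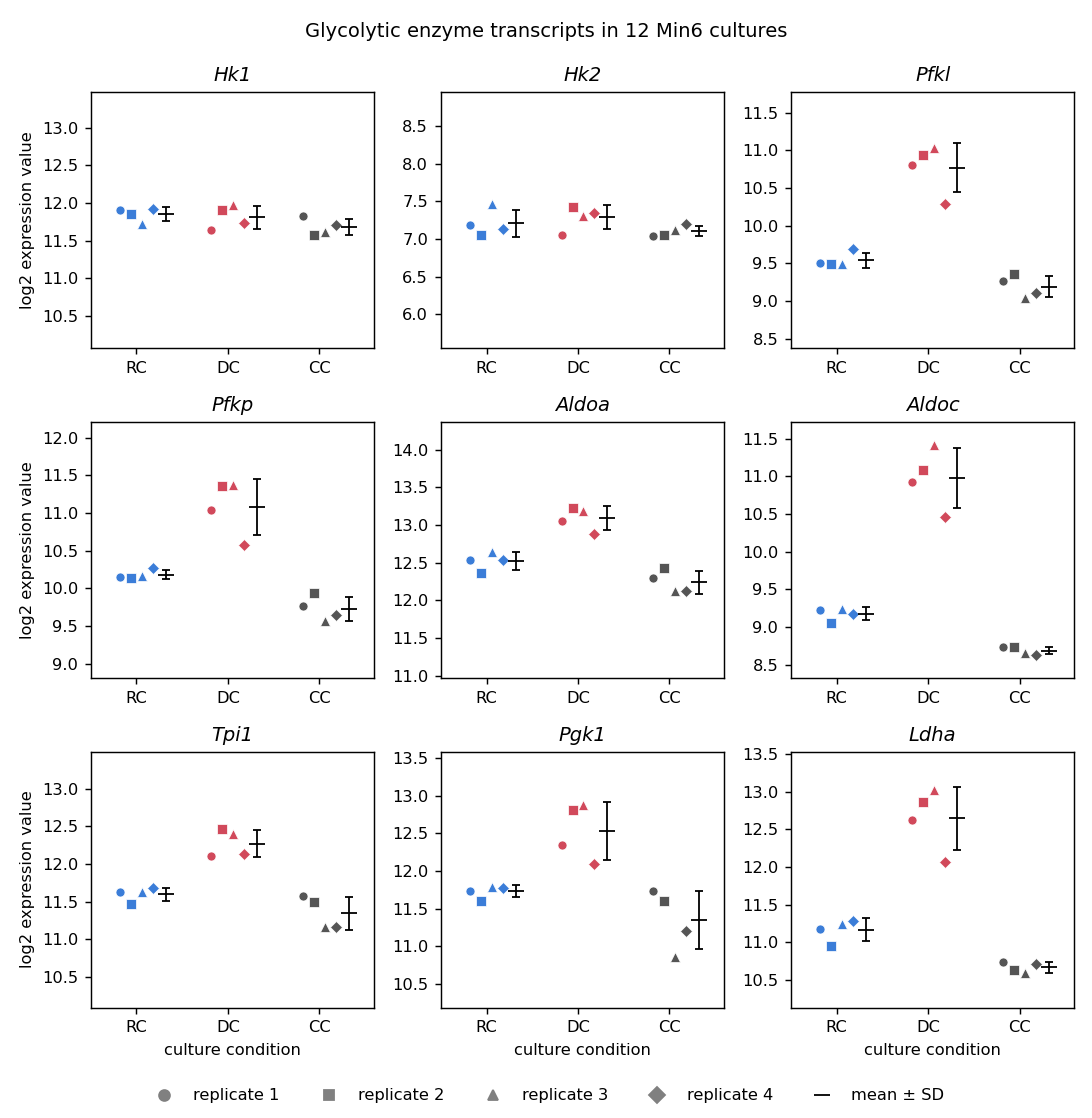
Log2 expression value (vertical axes) of the 9 measured glycolytic enzymes in the RC, DC and CC cultures (horizontal axes), with 1 point per array, its shape giving the replicate number, and bars for the mean ± SD of 4 arrays. All panels span the same log2 range, and the DC points lie above all CC points for the 7 genes from Pfkl to Ldha but not for Hk1 and Hk2.

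At the first step, Hk1, the hexokinase found in most tissues, was measured by 2 probe sets, and its results are uncertain. The probe set with the higher mean, 10414661, read 11.64, 11.91, 11.97 and 11.73 in DC and 11.83, 11.58, 11.62 and 11.71 in CC. These groups overlap, and the log2 difference of 0.13 ± 0.09 (SE; 95% interval -0.06 to 0.32; adjusted p = 0.37) did not pass. This probe set is annotated by a single accession, which all 16 rows named for both Hk1 and the ribosomal protein gene Rpl17 also carry, and over the 12 arrays it correlated with those rows at 0.60 to 0.74 (median 0.66). The other Hk1 probe set, 10369541, correlated with the same rows at 0.42 to 0.84 (median 0.65) and with the first Hk1 probe set at 0.40. It read 9.37, 9.13, 9.28 and 8.55 in DC and 8.96, 9.04, 8.76 and 8.73 in CC, where DC 4 was the lowest of all 8 arrays. Its difference was 0.21 ± 0.15 (95% interval -0.11 to 0.53; adjusted p = 0.39). Hk2, the hexokinase best known as a target of insulin and of low oxygen, read 7.06, 7.42, 7.31 and 7.35 in DC and 7.04, 7.06, 7.12 and 7.20 in CC. Its values lie below the median of all values, 7.99, and its difference of 0.18 ± 0.10 (95% interval -0.03 to 0.40; adjusted p = 0.30) did not pass, so a rise above 0.40 lies outside the interval.

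At the phosphofructokinase step both isozymes of the set rose, while Pfkm, described with the remaining genes below, did not pass (0.25 ± 0.08, adjusted p = 0.086). Pfkl, the liver-type subunit, read 10.81, 10.93, 11.03 and 10.29 in DC against 9.26, 9.36, 9.04 and 9.11 in CC. Even DC 4, the lowest DC array, lay above the highest CC array. The difference was 1.58 ± 0.14 on the log2 scale, or 2.98-fold (SE, n = 4 per group; adjusted p = 2.8e-05), which ranked 13 among all rows from the highest. Pfkp, the platelet-type subunit, read 11.04, 11.36, 11.37 and 10.57 in DC against 9.77, 9.94, 9.57 and 9.64 in CC. DC 4 was again the lowest DC array and the groups did not overlap. Its difference was 1.35 ± 0.15, or 2.55-fold (adjusted p = 0.00017), at rank 17.

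At the aldolase step the isozymes differed in the size of their measured rise. Aldoc, the brain-type aldolase, read 10.93, 11.09, 11.42 and 10.46 in DC against 8.73, 8.73, 8.66 and 8.63 in CC. The CC arrays lay within 0.10 of each other and the DC arrays well above them. The difference of 2.29 ± 0.15, or 4.88-fold (adjusted p = 3.1e-06), ranked 4 among all rows. Aldoa, the muscle-type form that most tissues use, read 13.05, 13.23, 13.19 and 12.88 in DC against 12.30, 12.43, 12.13 and 12.12 in CC. Its groups did not overlap either, and its difference was 0.84 ± 0.10, or 1.80-fold (adjusted p = 0.00018), at rank 107. 

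At the triose phosphates, Tpi1, the isomerase that interconverts the products of aldolase, read 12.11, 12.46, 12.40 and 12.13 in DC against 11.58, 11.50, 11.16 and 11.16 in CC. All DC arrays were higher, by 0.93 ± 0.11 on the log2 scale, or 1.90-fold (adjusted p = 0.00033). Pgk1, the kinase of the first ATP-forming step, read 12.35, 12.81, 12.87 and 12.09 in DC against 11.73, 11.60, 10.86 and 11.20 in CC. The groups did not overlap, although the CC arrays spread more widely than for any other of the 7 genes (SD 0.39). Its difference was 1.18 ± 0.20, or 2.26-fold (adjusted p = 0.0029). It was 0.86 (adjusted p = 0.0352) with only CC 1 and CC 2 as CC arrays and 1.50 (adjusted p = 0.00354) with only CC 3 and CC 4. A further Pgk1 probe set, 10601390, gave 1.15 ± 0.19 (adjusted p = 0.0024).

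At the last step, Ldha, the subunit of lactate dehydrogenase that beta cells normally keep low, read 12.62, 12.87, 13.03 and 12.07 in DC against 10.74, 10.64, 10.60 and 10.71 in CC. The lowest DC array lay above the highest CC array by more than the whole spread of the CC arrays. The difference was 1.98 ± 0.16, or 3.94-fold (95% interval 1.62 to 2.33; adjusted p = 1.7e-05), and ranked 8 among all rows.

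RC was compared with DC to ask what 5 days back in serum at 20% oxygen did, with the reservation that RC cells had also spent fewer days without serum. Of the 9 enzymes, 6 were lower in RC (Pfkl, Pfkp, Aldoa, Aldoc, Tpi1 and Ldha) and 0 higher, and Pgk1 and both hexokinases did not pass. Over all rows, 420 were lower in RC, which is 1.18%, and 516 higher, which is 1.45%. The median of the 9 log2 differences was -0.80, with a range of -1.80 to 0.04, against -0.01 over all rows. For 7 of the 9 genes every RC array lay below every DC array, as in 3.23% of all rows. The DC arrays are shared with the comparison above, so a DC array that reads high or low moves both.

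Aldoc read 9.23, 9.05, 9.24 and 9.18 in RC, all more than 1 log2 unit below the lowest DC array, at 10.46. Its difference of -1.80 ± 0.15 (3.49-fold lower; SE, n = 4 per group; adjusted p = 5e-05) ranked 2 from the lowest among all rows. Ldha read 11.18, 10.96, 11.24 and 11.29 in RC, against a lowest DC value of 12.07, a difference of -1.48 ± 0.16 (2.79-fold lower; adjusted p = 0.00033). Pfkl and Pfkp followed, with RC values that lay close together. Pfkl read 9.50, 9.49, 9.49 and 9.69, at -1.22 ± 0.14 (2.34-fold lower; adjusted p = 0.00036). Pfkp read 10.15, 10.14, 10.17 and 10.27, at -0.90 ± 0.15 (1.87-fold lower; adjusted p = 0.006). The smaller falls were those of Tpi1 and Aldoa. Tpi1 read 11.63, 11.47, 11.63 and 11.69 in RC, below all DC arrays, at -0.67 ± 0.11 (1.59-fold lower; adjusted p = 0.0063). Aldoa read 12.53, 12.36, 12.64 and 12.54, at -0.57 ± 0.10 (1.49-fold lower; adjusted p = 0.0059).

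Pgk1 read 11.74, 11.60, 11.79 and 11.77 in RC, all below the lowest DC array, at 12.09, and its difference of -0.80 ± 0.20 (95% interval -1.23 to -0.37; adjusted p = 0.055) did not pass the threshold of 0.05. Its other probe set, 10601390, passed at -0.79 ± 0.19 (adjusted p = 0.046). Leaving out single arrays also moved the call, with an adjusted p of 0.0223 without DC 4, 0.0334 without CC 3 and 0.0406 without RC 3. Over all alternatives the difference lay between -0.97 and -0.69, and the adjusted p between 0.00933 and 0.181. Hk1 (10414661) read 11.91, 11.85, 11.72 and 11.92 in RC and differed from DC by 0.04 ± 0.09 (95% interval -0.15 to 0.23; adjusted p = 0.93). The direction of that value changed without DC 1, at -0.02. Hk2 read 7.19, 7.06, 7.47 and 7.14 in RC and differed from DC by -0.07 ± 0.10 (95% interval -0.29 to 0.14; adjusted p = 0.87).

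**Figure D2:**
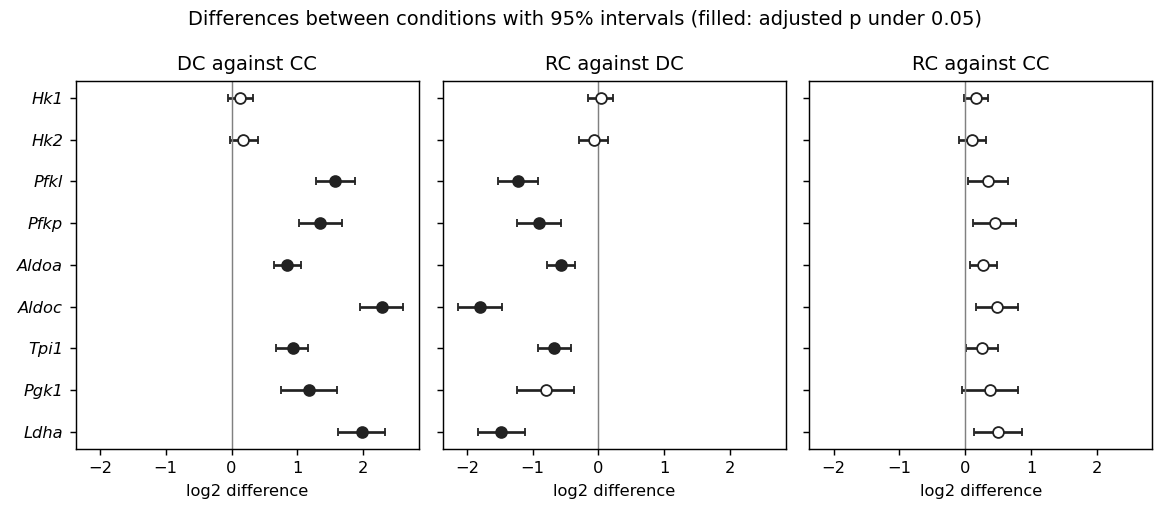
Log2 difference (horizontal axes) of each of the 9 enzymes (vertical axis) for DC against CC, RC against DC and RC against CC, with limma's 95% interval as bars and filled points where the adjusted p is under 0.05. The points of the 7 genes from Pfkl to Ldha lie right of 0 in DC against CC and left of 0 in RC against DC, and all 9 points lie right of 0, unfilled, in RC against CC.

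RC was compared with CC to ask how far the enzymes stood from cells that had never left serum. None of the 9 passed the test by limma (adjusted p 0.23 to 0.76), and 6 had an unadjusted p under 0.05, as had 3220 of all 35556 rows. Over all rows, 43 were higher in RC, which is 0.121%, and 240 lower, which is 0.675%. All 9 differences were above 0, with a median of 0.35 and a range of 0.11 to 0.50, against a median of 0.03 over all rows. The 21 markers of exocrine, duct, fibroblast, endothelial and immune cells were also all above 0 here. Their range of 0.04 to 0.24 holds the differences of Hk1 and Hk2. For 4 of the 9, Pfkl, Pfkp, Aldoc and Ldha, every RC array lay above every CC array, as in 2.49% of all rows. The CC arrays are shared with the first comparison and the RC arrays with the second.

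The values nearest to the threshold were those of Aldoc, whose RC arrays read 9.18 ± 0.09 against 8.69 ± 0.05 in CC (SD, n = 4), and Ldha, at 11.17 ± 0.15 in RC against 10.67 ± 0.07 in CC. The log2 difference was 0.48 for Aldoc (95% interval 0.16 to 0.81; adjusted p = 0.23) and 0.50 for Ldha (95% interval 0.14 to 0.86; adjusted p = 0.27). Both passed when only RC and CC arrays entered the fit (adjusted p = 0.0145 and 0.0317), where 0.16% of all rows were higher in RC, and when DC 4 was left out (0.0406 and 0.039), where 0.197% were. With array weights, which give the noisier arrays less influence, 8 of the 9 passed, but so did many other rows: 1477 of all rows were higher in RC under that setting, which is 4.15%, and 2818 were called in either direction, against 283 without weights. The differences of Pfkp (0.45; 95% interval 0.12 to 0.78; adjusted p = 0.28), Pfkl (0.35; 0.05 to 0.65; adjusted p = 0.43), Aldoa (0.27; 0.07 to 0.48; adjusted p = 0.32) and Tpi1 (0.25; 0.01 to 0.50; adjusted p = 0.52) had intervals above 0 before adjustment. Those of Pgk1 (0.38; -0.05 to 0.81), Hk1 (0.17; -0.02 to 0.35) and Hk2 (0.11; -0.10 to 0.32) did not. The other Hk1 probe set, 10369541, read 9.21, 9.13, 9.06 and 9.16 in RC against 8.96, 9.04, 8.76 and 8.73 in CC, without overlap, at 0.27 (95% interval -0.05 to 0.59; adjusted p = 0.66). The size for Tpi1 and Pgk1 depended on which CC pair was used. Against CC 1 and CC 2 alone the difference was 0.07 for Tpi1 and 0.06 for Pgk1, and against CC 3 and CC 4 alone 0.44 and 0.69. For Aldoc these values were 0.44 and 0.53, and for Ldha 0.48 and 0.52.

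The isozymes of a step were then compared within each array, as the log2 value of one minus that of the other. The size of such a difference depends on the probes, so only its shift between conditions is read. A shift can depend on the probes too, since the Ldhb probe sets differed by -0.45 and -0.29 for DC against CC. The shifts below therefore compare probe set values, and the part of the probes in them was not tested. There were 12 exact two-sided permutation tests, 4 pairs in 3 comparisons, and 0.0286 is the smallest p that 4 against 4 arrays allow, so a pair whose groups do not overlap reaches that value at most. The adjusted p of a pair at that value depends on how many of the 12 tests also reach it. The tests share arrays, so an adjusted p of 0.0429 is not independent support for any single pair. Aldoc minus Aldoa was -2.12, -2.13, -1.77 and -2.42 in DC and -3.56, -3.69, -3.47 and -3.49 in CC. The shift was 1.44 (exact permutation test, p = 0.0286, adjusted p = 0.0429), so the value of Aldoc rose by more than that of Aldoa, with no overlap between the groups. In RC the difference was -3.29, -3.31, -3.40 and -3.36, a shift of -1.23 against DC and of 0.21 against CC, with the same p-values and no overlap in either case.

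At the lactate dehydrogenase step Ldha was set against Ldhb, the heart-type subunit of the tetramer. Ldhb (probe set 10462035) fell, reading 9.15, 8.80, 8.77 and 8.70 in DC against 9.33, 9.48, 9.21 and 9.21 in CC, at -0.45 ± 0.10 (adjusted p = 0.013). It rose in RC relative to DC, reading 9.35, 9.32, 9.41 and 9.28, at 0.49 ± 0.10 (adjusted p = 0.017). Its other probe set passed in both comparisons, at -0.29 and 0.40. Ldha minus Ldhb averaged 1.83 ± 0.15 in RC, 3.79 ± 0.44 in DC and 1.36 ± 0.14 in CC (SD, n = 4). The shift was 2.43 between DC and CC, -1.96 between RC and DC and 0.47 between RC and CC. Each was without overlap (exact permutation test, p = 0.0286, adjusted p = 0.0429). However, each gene alone already separated the DC arrays from the CC and the RC arrays, Ldha and Ldhb in opposite directions. Their difference therefore had to separate DC from either group, and its p there adds nothing to the single-gene results. The Ldhb values of RC and CC overlapped, so the separation of those groups was not fixed in this way.

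Pfkp minus Pfkl moved less and the other way. It averaged 0.64 ± 0.05 in RC, 0.32 ± 0.09 in DC and 0.54 ± 0.03 in CC. The shift was -0.23 between DC and CC and 0.32 between RC and DC (exact permutation test, p = 0.0286, adjusted p = 0.0429 for both), so the value of Pfkl changed by more than that of Pfkp in both comparisons. For RC against CC the shift of 0.10 did not pass (exact permutation test, p = 0.0571, adjusted p = 0.0762). Hk2 minus Hk1 averaged -4.64 ± 0.26 in RC, -4.53 ± 0.12 in DC and -4.58 ± 0.14 in CC, and its shift did not pass between DC and CC (0.05, adjusted p = 0.686), RC and DC (-0.11, adjusted p = 0.549) or RC and CC (-0.06, adjusted p = 0.743; exact permutation tests).

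**Figure D3:**
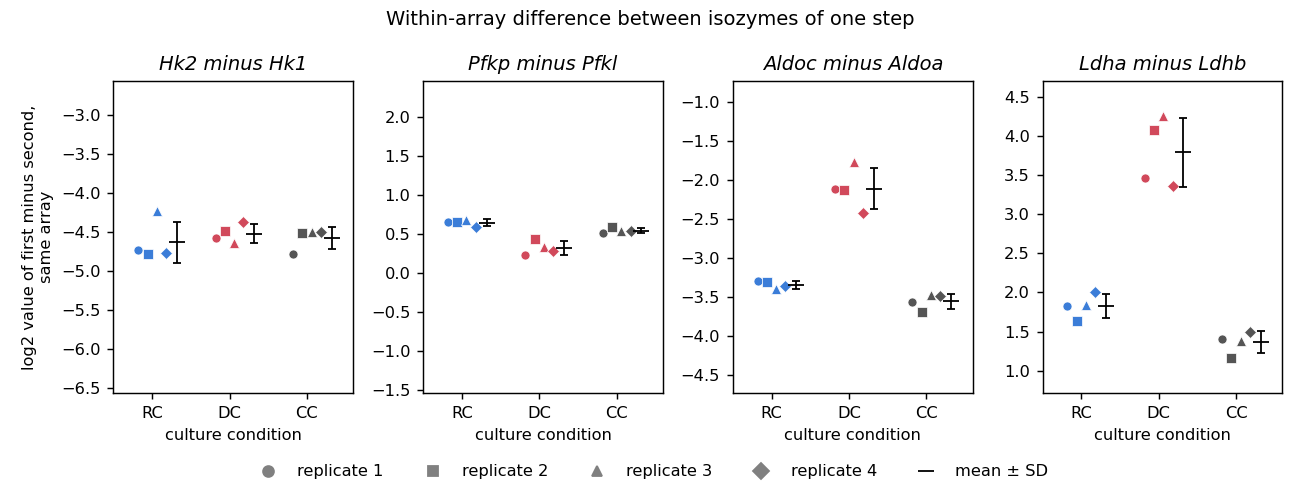
Within-array difference of log2 values (vertical axes) for 4 isozyme pairs in the RC, DC and CC cultures (horizontal axes), with 1 point per array and bars for the mean ± SD of 4 arrays. The DC arrays lie above the other arrays for Aldoc minus Aldoa and Ldha minus Ldhb, below them for Pfkp minus Pfkl, and among them for Hk2 minus Hk1.

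For the 7 genes that rose in DC, the SD over 4 arrays was 0.06 to 0.15 in RC, 0.16 to 0.42 in DC and 0.05 to 0.39 in CC. Averaged over the 9 enzymes, the deviation from the DC mean was -0.09 for DC 1, 0.18 for DC 2, 0.24 for DC 3 and -0.32 for DC 4. DC 4 was the lowest DC array for 6 of the 9 and DC 3 the highest for 6 of the 9. In RC the averages were 0.01, -0.11, 0.05 and 0.06 for RC 1 to RC 4, and RC 2 was the lowest for 8 of the 9. In CC they were 0.11, 0.09, -0.14 and -0.06 for CC 1 to CC 4, which follows the CC pairs. DC 4 read lowest in DC for other genes described below as well, such as Gys1 and Egln3, and what set it apart was not tested.

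The likeness of expression profiles was described by Pearson's r over the 12 arrays. These form 3 condition groups, so any gene that differs in DC gets a high r, and no p is given. Among the enzymes, Aldoc and Ldha were each the closest partner of the other (0.995). The closest partner of Pfkl was Ldha (0.991) and that of Pfkp was Pfkl (0.988). Aldoa, Tpi1 and Pgk1 each had a partner at 0.974 or above. The hexokinases stood apart, with highest values of 0.517 for Hk1 (with Pgk1) and 0.526 for Hk2 (with Aldoa). Against the mean of the 9 enzymes, the 8 genes outside the set with the highest r were Bnip3 (0.994), Lss (0.987), Pgm1 (0.987), Epm2a (0.985), Bnip3l, Klc1, Pdk1 and Slc25a1 (0.984 each). Bnip3 and Bnip3l are mitophagy receptors, Pdk1 a kinase that holds back pyruvate dehydrogenase, Lss the lanosterol synthase of cholesterol synthesis, Slc25a1 the mitochondrial citrate carrier and Epm2a the glycogen phosphatase laforin. High likeness did not mean a large change: the log2 difference of DC against CC was 2.18 for Bnip3 and 2.32 for Pdk1 but 0.28 for Klc1, a kinesin light chain.

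Of 20 remaining genes of glycolysis, 16 were measured, and the others were not analysed here. In DC against CC, 2 were higher and 1 lower (Ldhb, above), with a median of 0.17, against 2.31% and 4.32% of all rows. Pgam1, the phosphoglycerate mutase that follows Pgk1, rose in DC, reading 12.08, 12.26, 12.46 and 11.84 against 11.40, 11.26, 10.99 and 11.08 in CC, at 0.98 ± 0.14 (adjusted p = 0.0012). Pkm, the pyruvate kinase of most tissues other than liver, rose by 0.46 ± 0.11 (adjusted p = 0.026), while its other probe set, at 0.41, did not pass (adjusted p = 0.068). Pfkm, the muscle-type phosphofructokinase, differed by 0.25 ± 0.08 and did not pass (adjusted p = 0.086). In RC against DC, 1 of the 16 was higher (Ldhb) and 0 lower, with a median of -0.07, against 1.45% and 1.18% of all rows. Pgam1 differed by -0.54 (adjusted p = 0.079) and Pkm by -0.33 (adjusted p = 0.19). In RC against CC 0 passed by limma, and 3 had an unadjusted p under 0.05, as had 3220 of all 35556 rows.

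The neighbouring pathways were read in the same way, beside the shares of all rows called. Those were 2.31% higher and 4.32% lower in DC than in CC, and 1.45% higher and 1.18% lower in RC than in DC. Glycogen metabolism had 10 of 11 genes measured, of which 3 were higher in DC than in CC, 0 lower, and the same 3 were lower in RC than in DC. They were Pgm1, which links glucose 6-phosphate to glycogen (1.37 ± 0.18 for DC against CC, adjusted p = 0.00054; -0.99 for RC against DC, adjusted p = 0.011), the glycogen synthase Gys1 (1.32 ± 0.24, adjusted p = 0.0048; -1.17, adjusted p = 0.021) and the liver-type phosphorylase Pygl (0.36 ± 0.07, adjusted p = 0.0048; -0.27, adjusted p = 0.047). Gys1 read 10.57, 10.81, 10.82 and 9.44 in DC against 9.10, 9.24, 9.02 and 8.99 in CC, with DC 4 far below the other DC arrays. The median of the 10 was -0.03 for DC against CC, against 0.04 over all rows. Of 7 measured genes of the pentose phosphate pathway, Rpia, a ribose phosphate isomerase, was higher in DC than in CC (0.34 ± 0.08, adjusted p = 0.026) and the transketolase Tkt lower in RC than in DC (-0.38 ± 0.06, adjusted p = 0.0063). Of 9 genes of gluconeogenesis, 2 were higher in DC, the pyruvate carboxylase Pcx (0.44 ± 0.08, adjusted p = 0.0057) and the glucose 6-phosphate transporter Slc37a4 (0.42 ± 0.09, adjusted p = 0.0094). The glucose 6-phosphatase G6pc3 was lower (-0.46 ± 0.10, adjusted p = 0.017). In RC against DC, Pcx (-0.37) and Slc37a4 (-0.55) were lower and the fructose bisphosphatase Fbp1 higher (0.57 ± 0.13, adjusted p = 0.045).

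Mitochondrial pyruvate oxidation and the citrate cycle had 20 of 21 genes measured, and 0 passed for DC against CC by limma, with a median of -0.05. An unadjusted p under 0.05 was found for 7311 of all 35556 rows and for 5 of the 20 genes of this list. The smallest p-values there were those of Dlat, a pyruvate dehydrogenase subunit (-0.21, adjusted p = 0.18), and Suclg2, a succinyl-CoA ligase subunit (0.28, adjusted p = 0.18). In RC against DC, 1 was higher, the isocitrate dehydrogenase subunit Idh3a (0.55 ± 0.09, adjusted p = 0.0063), and the median was 0.15. Among 8 genes of the HIF pathway itself, 2 were higher in DC than in CC, both prolyl hydroxylases that mark HIF for degradation and are known targets of it. Egln3 read 9.23, 9.09, 9.46 and 8.21 in DC against 8.05 ± 0.06 (SD, n = 4) in CC, at 0.95 ± 0.20 (adjusted p = 0.014), with DC 4 close to the CC arrays. Egln1 was higher by 0.65 ± 0.15 (adjusted p = 0.019). Egln3 was lower in RC than in DC (-0.89 ± 0.20, adjusted p = 0.039). The transcript of Hif1a, whose protein is regulated mainly after translation, differed by 0.03 ± 0.16 between DC and CC (95% interval -0.31 to 0.37; adjusted p = 0.93). In none of these neighbouring lists did a gene pass for RC against CC by limma. In that comparison an unadjusted p under 0.05 was found for 1 gene each of the pentose phosphate and citrate cycle lists and for 0 of the others, against 3220 of all 35556 rows.

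**Figure D4:**
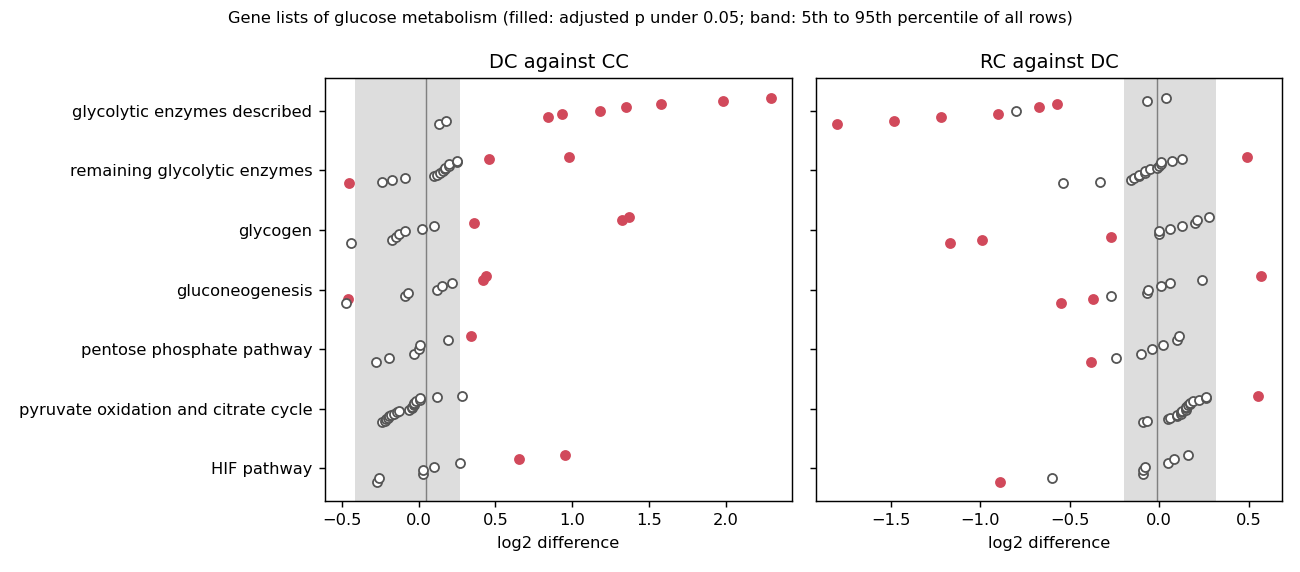
Log2 difference (horizontal axes) of each measured gene of 7 lists (vertical axis), with DC against CC on the left, RC against DC on the right, filled points where the adjusted p is under 0.05 and points spread vertically only for legibility. The grey band holds the 5th to 95th percentile of all rows and the line their median. The enzymes described here lie mostly outside the band, right of it in DC against CC and left of it in RC against DC, while most genes of the other lists lie inside.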

How the data were processed

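Total RNA of 12 Min6 cultures was labelled with biotin as cDNA and hybridised, per the labels' protocols. The values analysed are the authors' deposited log2 expression values, 1 per probe set and array. The scale was read from their range, and the software, any normalization and the authors' genome build were not given in the sources used here. Without detection calls no value was set against background, and precision is limited by the number of arrays. Conditions and replicate numbers came from the sample titles. Rows were named through the platform annotation (21789 rows with 1 symbol, 1621 with several, 12146 with none), and 21698 were matched to RefSeq GRCm38.p6 by gene identifier.

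With limma 3.58.1 in R 4.3.3, each of the 35556 rows was fitted over all 12 arrays by a linear model of condition (9 residual degrees of freedom), two-sided, with Benjamini-Hochberg adjustment over all rows and a threshold of 0.05. SEs are limma's moderated ones. Isozyme pairs were tested by exact permutation with scipy 1.17.1 and adjusted over 12 tests. Both procedures were tested on simulated data. Where a gene had several rows, the one with the highest mean over all arrays was used. The enzymes and gene lists were chosen with earlier results of these data known. All enzymes are named, with up to 4 called genes per further list, or the 2 with the smallest p, and the 8 genes of highest r. Other genes were named after their values were seen. Alternatives covered normalization, a filter on dim rows, array weights, the variance prior, array spread, a replicate block, single arrays, the CC pairs and other probe sets. Leaving out DC 4 and RC 3 together, and the other probe sets of Hk1 and Ldhb in the pairs, were chosen after seeing the data.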

Additional observations from a re-analysis of the deposited data

Results flagged for a closer look

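Of 90 groups of 4 arrays examined, 1 per glycolytic probe set and condition, 5 held an array whose gap to its nearest neighbour took nearly the whole range of the group, a pattern that chance gives in about 1 of 20 groups. For Pfkl the array was RC 4, at 9.69 against 9.49 to 9.50 on the other RC arrays, a gap of 0.968 of the range. The remaining 4 all concern RC 3 and tissue-restricted isozymes. Hk3, a hexokinase of blood cells, read 7.67 against 7.30 to 7.35 (0.863), and Pgk2, a phosphoglycerate kinase of the testis, 6.38 against 6.07 to 6.08 (0.950). Pklr, the pyruvate kinase of liver and red cells, read 8.45 against 8.14 to 8.18 (0.889), and Ldhc, the lactate dehydrogenase of the testis, 7.02 against 6.67 to 6.73 (0.832). RC 3 is the array with the lowest mean correlation with its group, 0.976, and the narrowest interquartile range, 2.42. Its part in these values was not tested.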

How the results depend on the processing

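The 7 enzymes higher in DC than in CC were called in all 24 alternatives. For RC against DC, 6 enzymes were called in 14 of 24 alternatives and 7 in 10. For RC against CC, 0 were called in 21 of 24, 2 with only the groups compared in the fit or without DC 4 (0 to 2 over the fits that leave out 1 array) and 8 with array weights. The log2 difference of Hk1 for RC against DC ran from -0.02 (without DC 1) to 0.09 over the fits that leave out 1 array. For DC against CC the shift of Hk2 minus Hk1 was -0.08 with quantile normalization, -0.03 with the other Hk1 probe set and -0.02 (without CC 1) to 0.09 over the same fits. The RC against CC shift of Pfkp minus Pfkl passed with quantile normalization, at 0.11 (adjusted p = 0.0381). The causes were not tested.

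The number of all rows called moved more. For DC against CC (2360) it was 4840 with array weights, 1568 with only CC 1 and CC 2, 991 with only CC 3 and CC 4, and 1549 to 3718 over the fits that leave out 1 array, where it was 1570 without CC 1, 1549 without DC 2 and 3718 without RC 3. For RC against DC (936) it was 462 with only the groups compared, 6413 with array weights, 1737 with the interquartile range as a covariate, 2317 without DC 4 and RC 3 together, and 522 to 2892 when 1 array was left out. It was 522 without RC 1, 578 without RC 2, 574 without RC 4, 578 without DC 2 and 2892 without RC 3. For RC against CC (283) it was 439 over rows above the median, 2818 with array weights, 636 with the interquartile range as a covariate, 18 with only CC 1 and CC 2, 23 with only CC 3 and CC 4, 474 without DC 4 and RC 3 together, and 57 to 352 when 1 array was left out. It was 64 to 105 without a CC array, and 57, 88 and 151 without RC 1, RC 2 and RC 4.

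With the replicate block 1852 rows and 7 enzymes were called between DC and CC, 689 rows and 6 enzymes between RC and DC, and 68 rows and 0 enzymes between RC and CC. Deviations of arrays with the same number correlated at -0.358 to 0.473. Arrays with different numbers were not compared in this way, so these values cannot decide whether the numbers pair the arrays. The arrays come from a single experiment, and the smallest difference called among these enzymes was -0.57, for Aldoa in RC against DC.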
